A study of Mus musculus with 20 samples.

Results

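Pkdcc, Treh, Golph3l, Akap7, Nat8, Krcc1, Arhgef7 and Cdkl2 are 8 of the 22298 genes listed for each liver, and they were chosen by the difference between 2 effects of benzbromarone (BBR), a uricosuric drug, namely its effect in livers with a PPARγ knockdown vector and its effect in livers with a control vector. All 8 passed the filter on low counts, as 12342 genes did. Their levels in the 4 groups, and each contrast between 2 of these groups, therefore belong to the choice and are given as a description. The average effect of BBR over both vectors and the average effect of the knockdown vector over both treatments were not used in the choice and are tested.

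Polyadenylated RNA was sequenced from 20 livers, each of 1 male Lepr db/db mouse, a strain without a working leptin receptor that becomes obese and diabetic, with 5 mice in each of 4 groups. At 5 weeks of age the mice received adeno-associated virus of serotype 8 (AAV8) by the tail vein, and all 4 groups carried both the db/db genotype and a vector. The Vec group had a vector with a non-targeting shRNA and was given vehicle, the Vec+BBR group had the same vector and was gavaged each day with BBR (25 mg per kg) over 4 weeks, the shRNA group had a vector with 4 shRNAs against PPARγ and was given vehicle, and the shRNA+BBR group had the PPARγ vector and the same course of BBR. All mice were fasted for 6 h before the liver was taken, and the promoter that drives the shRNAs is not given in the sources used here. The labels name the knockdown only as one of PPAR, and the study's methods name PPARγ.

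PPARγ is a nuclear receptor that binds DNA with RXR and switches on genes of fat storage when a ligand occupies it, and fatty livers of obese mice contain more of it than lean livers do. The 8 genes share no single pathway. Pkdcc encodes a kinase that is secreted and phosphorylates extracellular proteins on tyrosine, Treh encodes trehalase, which splits the sugar trehalose into glucose, and Nat8 encodes an acetyltransferase of the endoplasmic reticulum that completes mercapturic acids from cysteine conjugates. Golph3l encodes a Golgi protein related to GOLPH3, which binds the lipid PI4P, Akap7 encodes an anchor for protein kinase A, Arhgef7 (β-PIX) encodes an exchange factor for the small GTPases RAC1 and CDC42, Cdkl2 encodes a kinase related to the cyclin-dependent kinases, and Krcc1 encodes a lysine-rich coiled-coil protein that is little studied.

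The targets of the 4 shRNAs are shown because they define the knockdown against which the 8 genes were chosen. The letters are the sense strand, which is the site in the mRNA, and capitals mark the 7 bases that pair with the seed (bases 2 to 8) of the antisense strand.
shRNA1: gcatctccaccttATTATTCt
shRNA2: ggatgtctcacaaTGCCATCa
shRNA3: ggaaagacaacggACAAATCa
shRNA4: ggaagccctttggTGACTTTa
Each of the 4 targets of 21 bases was found whole in a GENCODE M21 transcript of Pparg. None was found whole in a transcript of the 8 genes, where the longest shared run was 9 bases. In the longest coding transcript of each gene, the capital letters of shRNA1 occurred in none of the 8 genes, those of shRNA2 in Pkdcc, Akap7 and Arhgef7, those of shRNA3 in Golph3l, Nat8 and Cdkl2, and those of shRNA4 in Cdkl2. Such matches are common, since they occurred in 13.2%, 29.6%, 15.7% and 32.5% of 12294 tested genes for shRNA1 to shRNA4.

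Levels are given as CPM, counts scaled to the same library total, after correction by the TMM method for differences in composition between libraries. The TMM factors were 0.873 to 0.998 in Vec livers and 0.957 to 1.14 in the other groups. Total counts ran from 17432903 to 25024094 per liver, and counts behind single values of the 8 genes ran from 25 for Cdkl2 to 1025 for Krcc1. Pparg had 24.8 ± 8.63 CPM in Vec, 31.8 ± 4.57 in Vec+BBR, 5.73 ± 1.53 in shRNA and 13.9 ± 6.22 in shRNA+BBR livers (SD, n = 5 each). The shRNA vector lowered it by a log2 fold change of −2.12 in vehicle mice (adjusted p = 4.47e-05) and of −1.20 in BBR mice (adjusted p = 0.00843, edgeR). BBR changed Pparg by 0.36 in Vec (adjusted p = 0.372) and by 1.28 in shRNA livers (adjusted p = 0.00773), a difference that did not pass (adjusted p = 0.208, edgeR). The shRNA+BBR livers ran from 7.19 to 21.8 CPM and overlapped with Vec livers, at 16.4 to 35.9. The part of uneven knockdown in the levels of the 8 genes was not tested. The share of counts from 13 mitochondrial genes was 9.14% to 10.8% in Vec, 9.96% to 13.8% in Vec+BBR, 9.90% to 12.3% in shRNA and 10.2% to 16.2% in shRNA+BBR livers. Nothing in the sources used here says that the replicates differ in batch, and p-values measure the spread between these mice.

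Pkdcc and Nat8 were highest in Vec livers and lower when either BBR or the knockdown vector was given alone. Treh, Golph3l, Akap7, Krcc1, Arhgef7 and Cdkl2 showed the mirror image, lowest in Vec livers and higher with either alone. BBR and the knockdown vector, each set against Vec, moved all 8 genes in the same direction. Both changes are taken against the same Vec livers and enter the difference that chose the genes, so nothing is read from this. When both were given, the level differed from the sum of the 2 separate changes on the log2 scale, which is the quantity that chose the genes. In whole liver, fewer cells of a type and less RNA per cell cannot be told apart.

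Pkdcc (ENSMUSG00000024247, chr17:83215292-83225070, plus strand, GRCm38) had 16.2, 19.0, 14.3, 16.9 and 13.4 CPM in Vec livers and 11.3, 9.81, 9.56, 8.61 and 9.32 CPM in Vec+BBR livers. In shRNA livers it had 9.05, 9.60, 11.6, 10.9 and 11.9 CPM, and in shRNA+BBR livers 12.8, 14.0, 15.9, 13.1 and 15.7 CPM. Every Vec+BBR and every shRNA liver lay below every Vec liver and every shRNA+BBR liver, and the Vec and shRNA+BBR livers overlapped. BBR thus went with a log2 change of −0.71 (SE 0.108) beside the control vector and of 0.43 (SE 0.107) beside the knockdown vector, a difference of 1.14 (SE 0.152). It was the member with the smallest p-value for this difference, which stood first among all tested genes.

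Nat8 (ENSMUSG00000030004, chr6:85830388-85832082, minus strand) had 32.0, 29.2, 32.8, 21.6 and 36.7 CPM in Vec livers and 16.3, 9.54, 7.94, 7.19 and 9.74 CPM in Vec+BBR livers. In shRNA livers it had 21.1, 17.0, 19.2, 19.6 and 16.1 CPM, and in shRNA+BBR livers 23.5, 23.1, 16.2, 12.7 and 18.0 CPM. Vec livers did not overlap with Vec+BBR or with shRNA livers, and the shRNA livers lay within the range of the shRNA+BBR livers. The log2 change with BBR was −1.58 (SE 0.198) beside the control vector and 0.01 (SE 0.192) beside the knockdown vector, a difference of 1.59 (SE 0.275). Mean levels came to 30.5 ± 5.64 CPM in Vec and 10.1 ± 3.60 CPM in Vec+BBR livers (SD, n = 5), a ratio of 0.333, the widest among the 8 genes. One Vec+BBR liver at 16.3 CPM stood apart from the other 4, and without it the difference of the BBR effects was 1.85.

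Treh (ENSMUSG00000032098, chr9:44673233-44686305, plus strand) had 9.92, 8.87, 11.3, 10.1 and 5.89 CPM in Vec livers and 15.5, 18.6, 21.7, 19.8 and 19.4 CPM in Vec+BBR livers. The shRNA livers had 15.4, 24.3, 15.3, 18.2 and 17.5 CPM, and in shRNA+BBR livers 16.8, 14.5, 12.1, 13.1 and 16.1 CPM. All 5 Vec livers lay below the other 15, and the other 3 groups overlapped from one to the next. The log2 change with BBR was 1.04 (SE 0.154) beside the control vector and −0.32 (SE 0.150) beside the knockdown vector, a difference of −1.36 (SE 0.215). The means of Vec+BBR and of shRNA livers were 2.06 and 1.97 times that of Vec livers, and the mean of shRNA+BBR livers 1.58 times.

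Cdkl2 (ENSMUSG00000029403, chr5:92006074-92043883, minus strand) had 1.40, 1.61, 2.80, 2.79 and 2.50 CPM in Vec livers and 5.26, 5.42, 5.18, 7.72 and 7.06 CPM in Vec+BBR livers. The shRNA livers had 4.80, 4.41, 4.19, 4.03 and 3.54 CPM, and in shRNA+BBR livers 5.09, 4.97, 4.36, 4.56 and 5.28 CPM. The Vec livers lay below all others, and the shRNA livers lay below all Vec+BBR livers. Cdkl2 was the only one of the 8 whose fitted BBR change was upward beside both vectors, with log2 changes of 1.46 (SE 0.174) beside the control vector and 0.21 (SE 0.166) beside the knockdown vector, a difference of −1.24 (SE 0.240).

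Golph3l (ENSMUSG00000046519, chr3:95588934-95619247, plus strand) had 4.81, 4.82, 4.61, 4.21 and 4.80 CPM in Vec livers and 7.44, 6.14, 7.18, 6.07 and 7.06 CPM in Vec+BBR livers. Beside the knockdown vector without BBR it had 7.40, 7.09, 8.33, 7.75 and 6.75 CPM, and in shRNA+BBR livers 5.67, 6.22, 6.77, 6.16 and 5.53 CPM. The Vec livers formed a narrow group below all others, and shRNA+BBR livers lay between them and the shRNA livers, touching the latter by 1 liver. The log2 change with BBR was 0.54 (SE 0.096) beside the control vector and −0.30 (SE 0.094) beside the knockdown vector, a difference of −0.84 (SE 0.135).

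Akap7 (ENSMUSG00000039166, chr10:25169090-25307870, minus strand) had 4.36, 4.24, 4.27, 5.53 and 5.32 CPM in Vec livers and 6.63, 8.06, 9.09, 7.36 and 9.65 CPM in Vec+BBR livers. Beside the knockdown vector without BBR it had 5.39, 6.08, 5.84, 6.66 and 7.21 CPM, and in shRNA+BBR livers 5.53, 3.98, 4.45, 5.57 and 5.18 CPM. The Vec+BBR livers stood above the Vec and shRNA+BBR livers, which covered much the same range, and the shRNA livers lay between and overlapped with each. The change with BBR was 0.78 (SE 0.131) beside the control vector and −0.34 (SE 0.131) beside the knockdown vector on the log2 scale, a difference of −1.12 (SE 0.185). Akap7 was the 1 member whose Vec and shRNA livers overlapped, at a log2 change of 0.39 (SE 0.132).

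Krcc1 (ENSMUSG00000053012, chr6:71271677-71285319, plus strand) had 26.5, 22.9, 26.5, 26.9 and 26.8 CPM in Vec livers and 34.4, 33.5, 33.7, 33.7 and 35.9 CPM in Vec+BBR livers. Levels in shRNA livers were 36.7, 38.2, 40.4, 44.9 and 36.0 CPM, and in shRNA+BBR livers 31.0, 34.0, 37.5, 34.6 and 38.0 CPM. Vec livers lay below the other 15, and the shRNA livers lay above all Vec+BBR livers. Its difference between the 2 BBR effects was the smallest of the 8, at −0.57 (SE 0.105), from changes of 0.40 (SE 0.074) beside the control vector and −0.17 (SE 0.074) beside the knockdown vector.

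Arhgef7 (ENSMUSG00000031511, chr8:11727721-11835219, plus strand) had 14.7, 16.8, 21.0, 16.2 and 20.9 CPM in Vec livers and 21.3, 25.2, 24.9, 23.0 and 21.7 CPM in Vec+BBR livers. Levels in shRNA livers were 25.5, 29.1, 29.2, 31.5 and 36.6 CPM, and in shRNA+BBR livers 20.8, 23.0, 18.0, 23.6 and 24.6 CPM. The shRNA livers stood above all other livers, and the shRNA+BBR livers overlapped with both Vec and Vec+BBR livers. The log2 change with BBR was 0.37 (SE 0.113) beside the control vector and −0.47 (SE 0.112) beside the knockdown vector, a difference of −0.84 (SE 0.159).

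**Figure D1:**
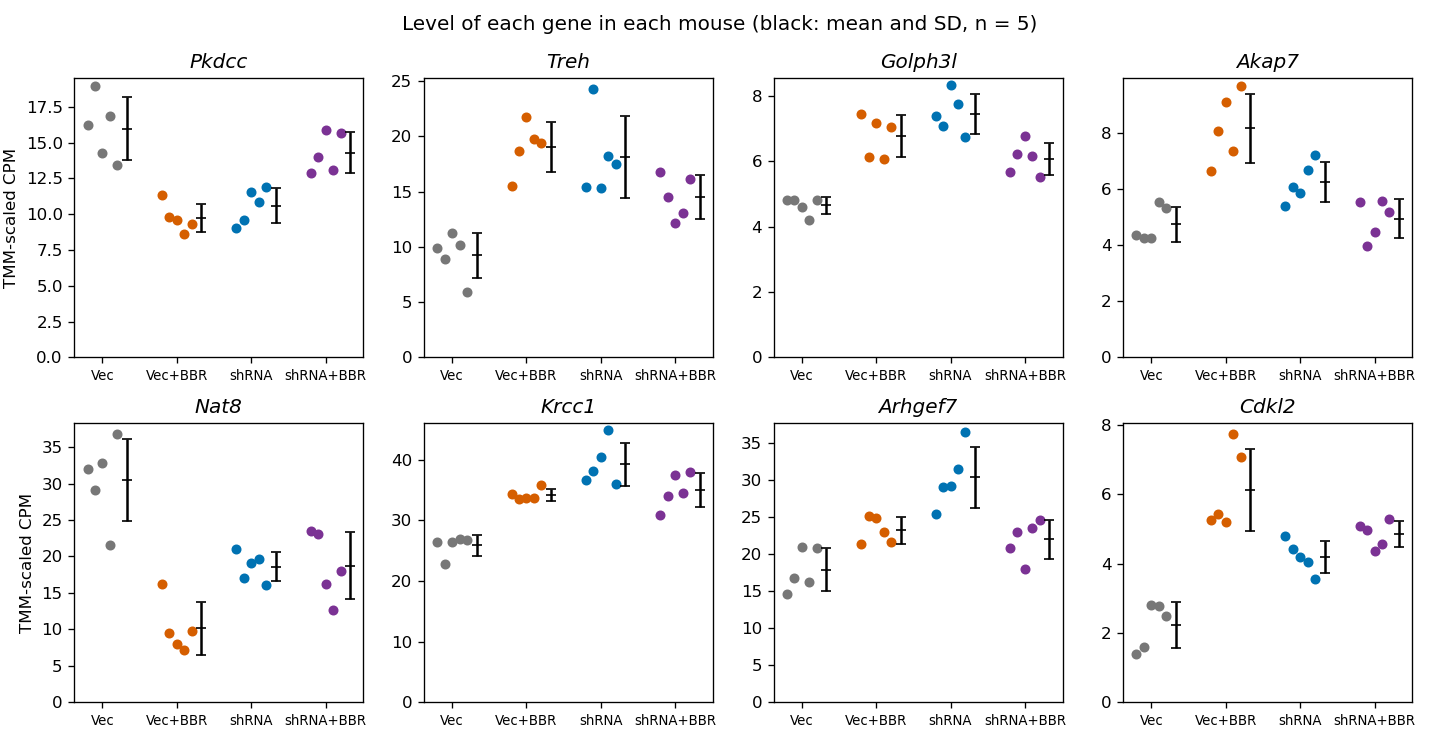
TMM-scaled CPM of each of the 8 genes (vertical axes, linear, from 0) in each of the 20 livers, by group, with points for single mice and black bars for the mean and SD of 5 mice. Pkdcc and Nat8 are highest in the Vec group, and the other 6 genes are lowest there.

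Between groups, Vec and Vec+BBR livers did not overlap in 8 of the 8 genes, beside 8.94% of all tested genes, and Vec and shRNA livers did not overlap in 7 of 8, beside 8.96%. The share without overlap between shRNA and shRNA+BBR livers was 2 of 8 (Pkdcc and Arhgef7), beside 11.4%, and between Vec+BBR and shRNA+BBR livers 2 of 8 (Pkdcc and Akap7), beside 8.48%. At an adjusted p-value under 0.05, BBR against vehicle marked 8 of the 8 beside the control vector, where it marked 15.5% of all tested genes, and 3 of the 8 (Pkdcc, Golph3l and Arhgef7) beside the knockdown vector, where it marked 15.7%. The knockdown vector against the control vector marked 7 of 8 in vehicle mice, where it marked 13.2% of all tested genes, and 3 of 8 (Pkdcc, Akap7 and Nat8) in BBR mice, where it marked 8.13%. Of these calls, that of Golph3l beside the knockdown vector was lost in 9 of 26 alternatives (adjusted p up to 0.0914), namely with no filter on low counts and without single shRNA or shRNA+BBR livers. That of Arhgef7 beside the control vector was lost in 6 of 26, all without single Vec or Vec+BBR livers (adjusted p up to 0.103, edgeR). The vector effect on Akap7 in vehicle mice, at an adjusted p-value of 0.0522 by edgeR, passed in 9 of 26. Among the 9 were DESeq2 size factors, the DESeq2 Wald test, at least 10 counts in every mouse and the replicate block, but not limma voom. The rest were fits without single livers. These counts follow from the way the genes were chosen, and nothing is read from them. The 4 comparisons share their groups in pairs.

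**Figure D2:**
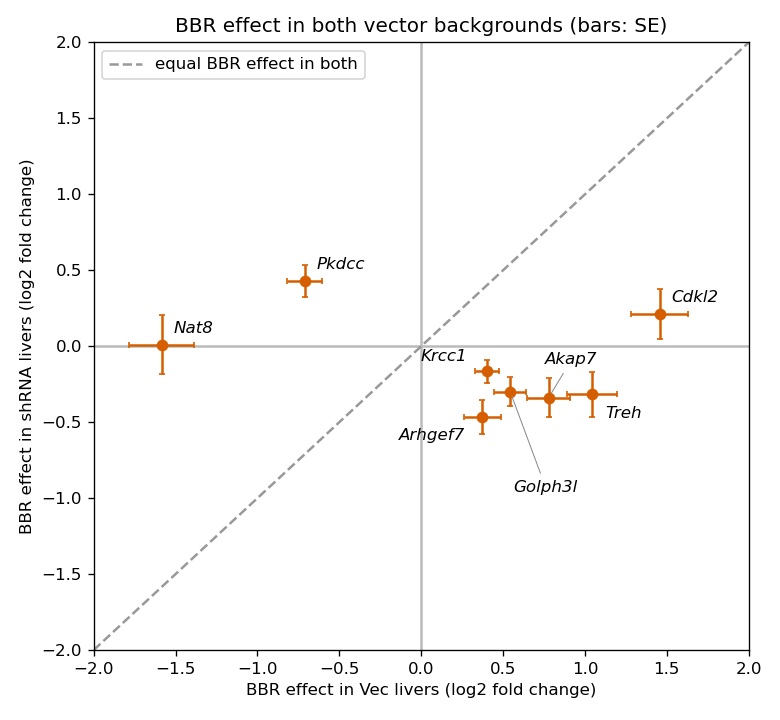
Log2 fold change with BBR in shRNA livers (vertical axis) against that in Vec livers (horizontal axis) for the 8 genes, with bars for the SE from edgeR and a dashed line where both would be equal. Nat8 and Pkdcc lie to the left of the line at −1.58 and −0.71, and the other 6 genes lie to its right.

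The difference of the BBR effects passed an adjusted p-value of 0.05 in 18 of the 12342 tested genes, or 0.146%, and the 8 genes are among these. The last of the 8 inside the threshold was Cdkl2 in rank 13, at an adjusted p-value of 0.0377. The last gene inside was Smoc2 in rank 18, at 0.0473, and among the first outside were Akirin2 and the chemokine gene Ccl5, both at 0.0530 (edgeR). The median absolute difference was 1.13 on the log2 scale over the 8 genes and 0.23 over all tested genes. That gap follows from the choice of the genes by this difference, and nothing is read from it.

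Averaged over both vectors, BBR lowered Nat8 and raised Cdkl2 and Treh. The average BBR effect, the mean of the 2 separate effects on the log2 scale, was −0.79 (SE 0.137) for Nat8, with an adjusted p-value of 0.000404 (quasi-likelihood test of edgeR, adjusted over all tested genes). For Cdkl2 it was 0.83 (SE 0.120), with an adjusted p-value of 7.69e-05, and for Treh 0.36 (SE 0.107), with an adjusted p-value of 0.0163. These 3 of 8 genes stood beside 27.3% of all tested genes that passed the same test. Pkdcc (−0.14, adjusted p = 0.178), Golph3l (0.12, adjusted p = 0.187), Akap7 (0.22, adjusted p = 0.0807), Krcc1 (0.12, adjusted p = 0.102) and Arhgef7 (−0.05, adjusted p = 0.695) did not pass. The 2 BBR effects had opposite signs in 7 of the 8 genes, Treh among them (1.04 and −0.32) and Cdkl2 not, which an average does not show. The BBR effect on Nat8 beside the knockdown vector was near 0, and its sign changed in 7 of 26 alternatives. Only Pkdcc, Golph3l and Arhgef7 passed for BBR beside that vector. A choice by the difference of the 2 effects favours opposite signs, so nothing is read from this count.

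Averaged over vehicle and BBR, the knockdown vector raised Krcc1, Arhgef7 and Golph3l. The average vector effect was 0.31 (SE 0.052) for Krcc1, with an adjusted p-value of 0.000264, 0.34 (SE 0.079) for Arhgef7, with 0.00464, and 0.26 (SE 0.067) for Golph3l, with 0.00912. These 3 of 8 genes stood beside 18.8% of all tested genes. Treh (0.29, adjusted p = 0.0620), Cdkl2 (0.29, adjusted p = 0.105), Akap7 (−0.17, adjusted p = 0.231), Nat8 (0.09, adjusted p = 0.719) and Pkdcc (−0.02, adjusted p = 0.915) did not pass. In vehicle mice the vector effect on Krcc1, Arhgef7 and Golph3l was 0.60, 0.76 and 0.68, and in BBR mice it was 0.03, −0.08 and −0.16 (adjusted p = 0.832, 0.716 and 0.314, edgeR). None of the 8 genes passed for both average effects with all mice by edgeR and its usual filter. Treh passed for both by the DESeq2 Wald test (adjusted p = 0.00755 for BBR and 0.0400 for the vector), by edgeR with at least 10 counts in every mouse (0.0120 and 0.0483), and by edgeR without replicate 3 of Vec, shRNA or shRNA+BBR (0.0332 to 0.0439 for the vector). Krcc1 passed for both by edgeR without shRNA replicate 4 (adjusted p = 0.0441 for BBR and 0.000636 for the vector). The spread between mice enters these tests and the choice alike, and genes chosen for a small p-value tend to have a low estimate of it, which lay below the trend for genes of like level in 6 of the 8, all but Treh and Nat8.

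**Figure D3:**
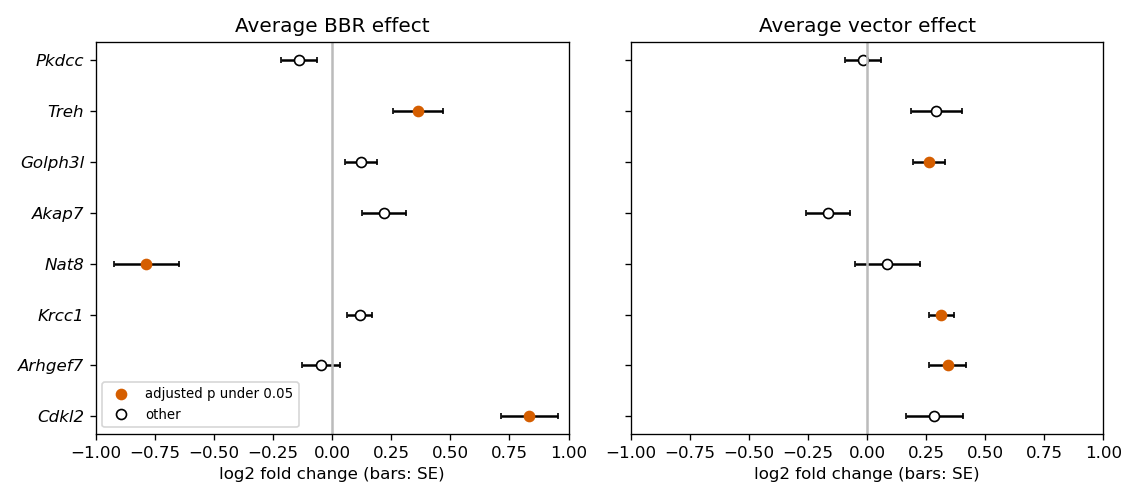
Average effect of BBR over both vectors (left) and of the knockdown vector over both treatments (right) on the 8 genes, as log2 fold change with bars for the SE from edgeR, filled where the adjusted p-value was under 0.05. Nat8, Treh and Cdkl2 are filled on the left, and Golph3l, Krcc1 and Arhgef7 on the right.

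The ranges with single mice left out are a description, since the choice of the genes by this difference nearly fixes its direction. With each mouse left out in turn, that of Pkdcc lay between 1.07 and 1.22, that of Nat8 between 1.49 and 1.85, and that of Treh between −1.43 and −1.24. The range was −1.34 to −1.10 for Cdkl2, −1.18 to −1.04 for Akap7 and −0.88 to −0.79 for Golph3l. For Arhgef7 it was −0.90 to −0.76 and for Krcc1 −0.60 to −0.51. How many of the 8 stayed under an adjusted p-value of 0.05 did depend on single livers and fell to 4 without Vec+BBR replicate 4.

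**Figure D4:**
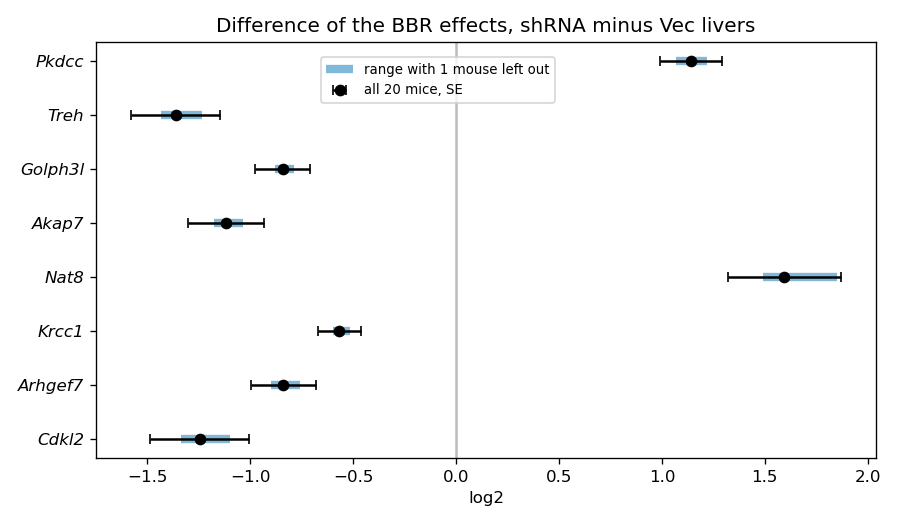
Difference of the BBR effects between shRNA and Vec livers (horizontal axis, log2) for the 8 genes, with points for all 20 mice, black bars for the SE and blue bands for the range over 20 fits that each leave out 1 mouse. The bands run from 1.49 to 1.85 for Nat8 and from −0.60 to −0.51 for Krcc1, and their side of 0 is nearly fixed by the choice of the genes.

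Scaled for transcript length, as FPKM, Krcc1 and Nat8 were the most abundant of the 8, with medians of 22.4 and 16.9 FPKM over the 20 livers. Treh followed with 7.62, then Pkdcc with 6.07, Akap7 with 5.91, Arhgef7 with 5.53, Golph3l with 2.40 and Cdkl2 with 1.16 FPKM. These medians are over all 4 groups, and the order differed between groups. In Vec livers Nat8 (mean 25.6 FPKM) stood above Krcc1 (15.7) and Pkdcc (7.29) above Treh (4.32), and in Vec+BBR livers Treh (9.82) stood above Nat8 (9.27). The ranges over livers of neighbours in the order of medians overlapped, except those of Arhgef7 (3.09 to 9.21 FPKM) and Golph3l (1.48 to 2.94 FPKM).

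Across the 20 livers, Golph3l followed Krcc1 most closely of all 9795 genes compared, with a Pearson correlation of 0.86 of log2 CPM. The genes nearest to the others were Rilpl2 (0.84) and Fbl (0.83) for Pkdcc, Tmem184c (0.85) and Fam3c (0.79) for Treh, and Atp7b (0.87) and Ubqln2 (0.85) for Akap7. Nat8 was nearest to Sult2a8 (0.88), a sulfotransferase gene, and Aspdh (0.87), and Cdkl2 to the fatty acid transporter gene Cd36 (0.87) and Mapre1 (0.86). Krcc1 was nearest to Cpd (0.88) and Acbd3 (0.87), Arhgef7 to Eppk1 (0.85) and Sorl1 (0.81), and Golph3l in second place to Blzf1 (0.76). These correlations contain the differences between groups, by which the 8 genes were chosen, so nothing is read from them. Sult2a8 itself passed for the difference of the BBR effects, in rank 11. Within groups, as deviations from the group means, the correlation of Golph3l with Krcc1 was 0.27. The 28 pairs of the 8 genes had such correlations from −0.56 to 0.36 with a median of −0.02.

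Nat8 lies in a cluster of related acetyltransferase genes on chromosome 6, and its value needs the most care. Its expected counts were not whole numbers in 10 of 20 livers, while those of the other 7 genes were whole in all, as happens where reads are divided between genes. These 10 were unevenly spread, with every Vec liver, no Vec+BBR liver and some livers of each knockdown group. Whether such division bears on the differences between groups was not tested. The Nat8 transcript shares an identical run of 110 bases with that of Nat8f1, with 84.2% identity over 708 aligned bases, and runs of at most 52 bases with the other Nat8f genes. Nat8f1, the neighbour 83.6 kb away, averaged 98.2 CPM in Vec, 46.3 in Vec+BBR, 124 in shRNA and 84.8 in shRNA+BBR livers. Nat8f1 fell with BBR on average (−0.81, adjusted p = 6.08e-05), as Nat8 did, and rose with the knockdown vector (0.60, adjusted p = 0.000746, edgeR), where Nat8 did not pass. Nat8f5 and Nat8f6, both about 11.1 kb away, had log2 changes with BBR of −0.63 and −0.91 beside the control vector and of 0.36 and 1.19 beside the knockdown vector. Their differences between the 2 effects, 0.99 and 2.10, did not pass (adjusted p = 0.142 and 0.0530, edgeR), and Nat8f6 averaged only 8.65 counts. The other 3 did not pass either, with a difference of 0.54 for Nat8f1 (adjusted p = 0.214), 0.11 for Nat8f2 (0.811) and −0.68 for Nat8f4 (0.284), the last in the opposite direction.

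**Figure D5:**
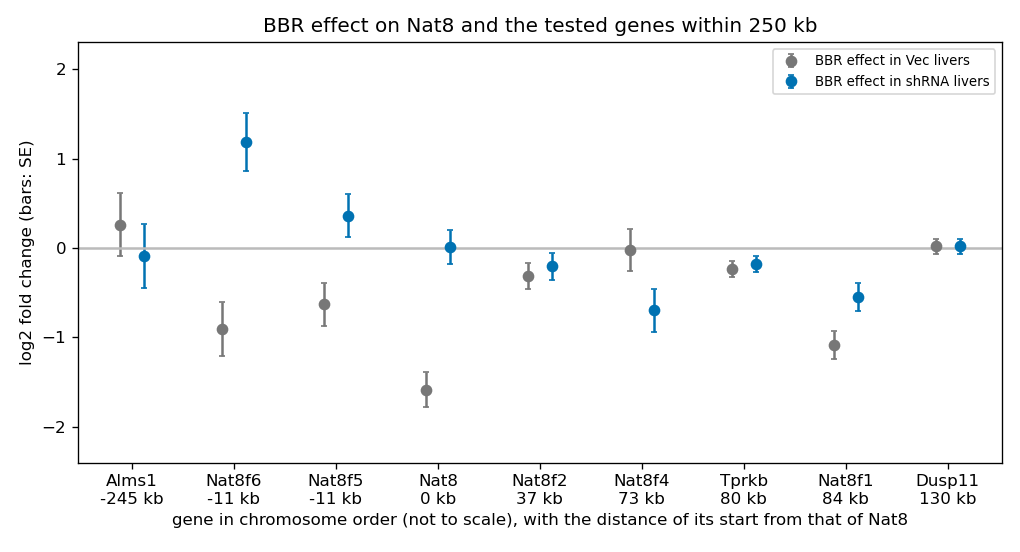
Log2 fold change with BBR in Vec livers (grey) and in shRNA livers (blue) for Nat8 and the 8 tested genes whose starts lie within 250 kb of it, in chromosome order, with bars for the SE from edgeR. Nat8, Nat8f1, Nat8f2, Nat8f5 and Nat8f6 have a lower value in Vec than in shRNA livers, Nat8f4 has a higher one, and Dusp11 lies near 0 in both.

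Around the 8 genes together, 46 other tested genes had their start within 250 kb, and none of these passed for the difference of the BBR effects by edgeR (0 of 46, with 15 at an unadjusted p-value under 0.05) or limma voom (0), while 4 did by DESeq2 (Nat8f6, Tmem25 near Treh, and the T cell genes Cd8a and Cd8b1 near Krcc1). For the average BBR effect 14 of 46 passed, beside 27.3% of all tested genes, and for the average vector effect 7 of 46, beside 18.8%. Treh overlaps Phldb1 on the opposite strand, and Phldb1 rose with BBR on average (0.97, adjusted p = 0.000526). Krcc1 overlaps Smyd1 on the opposite strand, which did not pass for either average effect (−0.11, adjusted p = 0.665 for BBR). Whether counting used the strand is not given in the sources used here, so reads from overlapping exons of these pairs may not have been told apart. Golph3l shares no run over 24 bases with its relative Golph3.

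Promoters of Pkdcc and Nat8, the genes highest in Vec livers, and of Treh, one of those lowest there, are shown to set genes of either pattern side by side. They are the 250 bases before the RefSeq start (GRCm38.p6), 5′ to 3′ on the strand of the gene, at chr17:83215033-83215282 (plus strand) for Pkdcc, chr6:85832280-85832529 (minus strand) for Nat8 and chr9:44672983-44673232 (plus strand) for Treh. Capitals mark GC boxes in Pkdcc, CCAAT boxes in Nat8 and an AGGTCA site, in reverse, in Treh.
Pkdcc: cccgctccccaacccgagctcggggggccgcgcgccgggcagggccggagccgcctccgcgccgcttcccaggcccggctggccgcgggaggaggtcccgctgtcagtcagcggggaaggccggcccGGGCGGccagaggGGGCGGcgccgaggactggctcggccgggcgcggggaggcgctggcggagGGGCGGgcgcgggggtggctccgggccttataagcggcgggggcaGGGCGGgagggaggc
Nat8: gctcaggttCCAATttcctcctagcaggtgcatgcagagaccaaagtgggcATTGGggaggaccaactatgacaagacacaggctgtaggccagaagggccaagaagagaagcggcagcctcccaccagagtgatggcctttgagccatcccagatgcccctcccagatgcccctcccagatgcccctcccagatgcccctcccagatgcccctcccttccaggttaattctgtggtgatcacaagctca
Treh: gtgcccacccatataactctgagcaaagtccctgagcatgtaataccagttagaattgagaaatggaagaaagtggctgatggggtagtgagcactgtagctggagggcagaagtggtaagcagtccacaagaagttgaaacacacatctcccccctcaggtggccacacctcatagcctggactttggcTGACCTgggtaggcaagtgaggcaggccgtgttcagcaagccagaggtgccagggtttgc
Of 6 motifs searched on both strands in the nearest window of each of the 8 genes, the direct repeat of AGGNCA with 1 base between the copies, the form to which PPAR and RXR bind, occurred in 0 of 8, beside 0.338% of 32851 windows of the same length. The single site AGGTCA, which can be a part of that repeat, occurred in 1 of 8, beside 14% of windows. TTCNNNGAA occurred in 1 of 8 (Arhgef7, 7.02% of windows), CACGTG in 0 of 8 (6.02%), CCAAT in 3 of 8 (Golph3l, Nat8 and Cdkl2, 33.8%) and GGGCGG in 5 of 8 (32.7%). The windows of Akap7, Krcc1, Arhgef7 and Cdkl2 lie inside the genes as GENCODE gives them, and 4 of the 5 genes with GGGCGG and the 1 with TTCNNNGAA are among these. The windows ranged from 51.6% to 83.2% in GC content, and a match is a matter of letters only.

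Among 62 tested relatives and partners of the 8 genes, 0 passed for the difference of the BBR effects by edgeR (11 at an unadjusted p-value under 0.05) and by limma voom, and 2, Nat8f6 and Osbp, did by DESeq2. Among 7 tested kinases of the secretory pathway, the group of Pkdcc, BBR lowered 2 on average, Dipk1a (−0.80, adjusted p = 0.000285) and Fam20b (−0.29, adjusted p = 0.00489), and the knockdown vector raised 3 and lowered 2. Among 13 tested genes of the mercapturate pathway and relatives of Nat8, BBR lowered 5 and raised 1. The 5 were Nat8f1, Ggt6 (−0.54, adjusted p = 0.00142), the aminoacylase gene Acy1 (−0.45, adjusted p = 0.00128), Kyat1 (−0.67, adjusted p = 0.00207) and Kyat3 (−0.55, adjusted p = 0.0205), and the one that rose was Ggt5 (0.59, adjusted p = 0.00203). The median over this list was −0.26 for the average BBR effect, beside −0.00177 over all tested genes. The knockdown vector raised Nat8f1 in this list and lowered Anpep, Acy3 and Kyat1. Counts in these lists stand beside 27.3% of all tested genes that passed for the average BBR effect and 18.8% for the average vector effect.

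Among 11 genes of Golgi PI4P, with Golph3l, BBR raised 3 on average, the ceramide carrier gene Col4a3bp (0.52, adjusted p = 0.000439), Pi4k2b and Sacm1l, and lowered Pitpnb. The knockdown vector on average lowered Sacm1l and Pi4k2a and raised Golph3 (0.25, adjusted p = 0.000827). Its effect on Golph3 was 0.18 in vehicle mice (adjusted p = 0.0720) and 0.32 in BBR mice (adjusted p = 0.00659, edgeR). Golph3l also rose on average, but with 0.68 in vehicle mice and −0.16 in BBR mice. Of 14 tested genes of protein kinase A and its anchors, with Akap7, BBR lowered 2, Akap8 and Akap8l, and the knockdown vector raised Prkar2a (0.37, adjusted p = 0.00105) and Akap8 and lowered Prkar1b. Of 10 tested partners of Arhgef7, BBR raised 1, Cdc42 (0.25, adjusted p = 0.00711), whose protein Arhgef7 activates, and the knockdown vector lowered Rac1 and Pxn. Of 5 tested genes listed with Treh, for glucosidases and the sugar transporter SLC2A8, BBR lowered 1, Ganab (−0.31, adjusted p = 0.000956), and the knockdown vector lowered Gaa and Ganc. Over all tested genes, 27.3% passed for the average BBR effect and 18.8% for the average vector effect. No response of the partners as a group is read from these counts.

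Among known PPARγ targets, BBR raised 13 of 14 on average, among them Cidea (4.39, adjusted p = 8.63e-06), Cidec and Fabp4, and the knockdown vector lowered 4 of 14, Cidea, Cidec, Mogat1 and Pltp. None of the 14 passed for the difference of the BBR effects by edgeR (3 at an unadjusted p-value under 0.05), DESeq2 or limma voom, and the median difference was 0.03 on the log2 scale. Genes known to be higher in female liver fell with BBR in 6 of 7 and rose with the knockdown vector in 4 of 7, with 1 lower. Of 7 genes known to be higher in male liver, 2 rose and 2 fell with BBR and 3 fell with the knockdown vector. Of 11 clock genes, BBR raised 1 and lowered 3, and the knockdown vector raised 2, Arntl (1.34, adjusted p = 0.000264) and Nfil3, and lowered 3, among them Nr1d1 (−1.37, adjusted p = 0.000177) and Dbp (−1.34, adjusted p = 0.000501). The shares over all tested genes were 27.3% for the average BBR effect and 18.8% for the average vector effect. The part of sex-biased genes or of the clock in the levels of the 8 genes was not tested.

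The labelled tissue bore its markers. Summed CPM of 4 hepatocyte markers ran from 82561 to 135465. Markers of endothelial cells had lower sums in Vec livers than in most others, with 59.7 to 80.6 summed CPM in Vec, 76.3 to 104 in Vec+BBR, 90.4 to 115 in shRNA and 77.8 to 117 in shRNA+BBR livers, with medians of 68.3, 94.6, 94.8 and 94.6. Of the 5, Lyve1, Pecam1 and Oit3 rose with BBR on average and Stab2, Lyve1 and Clec4g with the knockdown vector, and 0 passed for the difference of the BBR effects by edgeR (3 at an unadjusted p-value under 0.05), DESeq2 or limma voom. Markers of lymphocytes, 4 in all and 2 of them tested, had lower medians in Vec+BBR (0.806) and shRNA (1.01) than in Vec (2.17) and shRNA+BBR livers (3.29). Their summed CPM was 0.257 to 3.33 in Vec, 0.714 to 1.45 in Vec+BBR, 0.457 to 1.14 in shRNA and 1.08 to 3.52 in shRNA+BBR livers. The 2 tested, Nkg7 and Cd3e, had group means of at most 1.17 CPM. With BBR, Nkg7 changed by −2.22 beside the control vector and 1.78 beside the knockdown vector, and Cd3e by −0.99 and 1.05. The differences, 4.00 and 2.04, did not pass (adjusted p = 0.0530 and 0.112, edgeR). Stellate cell markers had 149 to 278 summed CPM in Vec, 298 to 332 in Vec+BBR, 184 to 245 in shRNA and 245 to 375 in shRNA+BBR livers, and 5 of 6 rose with BBR on average. The part of these cells in the levels of the 8 genes was not tested. Counts of markers called, here and below, stand beside 27.3% of all tested genes for the average BBR effect and 18.8% for the average vector effect.

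Kupffer cell markers lay between 90.6 and 227 summed CPM, and 0 of 5 passed for either average effect by edgeR, DESeq2 or limma voom, with 1 at an unadjusted p-value under 0.05 for BBR. Of 5 cholangiocyte markers 1 rose with BBR (Spp1), of 4 erythroid markers 3 rose with BBR and 2 fell with the knockdown vector, and of 4 adipocyte markers the 1 that was tested, Cfd, rose with BBR (4.25, adjusted p = 4.44e-05), while Adipoq, Plin1 and Lep were at 0 in 11, 17 and 19 of 20 livers. Trehalase and NAT8 are also abundant in the kidney, and trehalase in the intestine. Kidney tubule markers summed to at most 2.60 CPM, in Vec replicate 3, where none of the 5 was at 0. Slc22a6 was at 0 in 19 of 20 livers, Slc34a1 in 17, Kap and Umod in 16 each, and Lrp2 in 1. In shRNA livers the highest sum was 0.837 CPM, in replicate 2. These 2 livers had the highest Treh of their groups, at 11.3 and 24.3 CPM. Their Nat8, at 32.8 and 17.0 CPM, was not the highest. The part of kidney tissue in these levels was not tested. Intestinal markers summed to at most 0.196 CPM. Pancreatic markers summed to at most 0.500 CPM.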

How the data were processed

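The authors aligned reads to mm10 per the labels and deposited, for each gene in each library, an expected count, which divides reads that match more than 1 gene, and an FPKM value, which the authors scaled for length and library size. The aligner and the counting program are not given in the sources used here. Expected counts were rounded to whole numbers, filtered with filterByExpr by group (minimum count 10, minimum total 15) and scaled by TMM (factors 0.873 to 1.14). A quasi-likelihood model of 4 group means was fitted to 20 libraries with edgeR 4.0.16 in R 4.3.3, and p-values were adjusted by Benjamini-Hochberg over 12342 genes. A count of 3 was 0.121 to 0.193 CPM, and the common biological coefficient of variation was 0.177. FPKM values were only used to compare levels between genes. Alternatives were DESeq2 1.42.0 (size factors or Wald test), limma 3.58.1 (voom), no filter, at least 10 counts in every mouse, a replicate block, and each mouse left out. No 2 libraries of a group agreed within sampling noise, with a chi-square of at least 14.3 per gene over 40 pairs. Positions are from GENCODE M21, which held 22255 of the listed genes.

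The 8 genes and all gene lists were chosen with earlier results of these data known. Named are the 8 genes, Pparg, list genes past an adjusted p-value of 0.05 for an average effect, the 2 genes with the highest correlation to each (mean count of at least 50), tested genes starting within 250 kb, and close relatives. Genes beside the threshold of the choice were named by rank, and other markers after their values were seen. The lists, from general knowledge, are those of the report.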

Additional observations from a re-analysis of the deposited data

Results flagged for a closer look

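The BBR effect differed between the vectors, by the test of the difference itself, in all 8 genes, and this is how they were chosen, so that it is no independent finding. On the log2 scale the difference, shRNA minus Vec livers, was 1.14 for Pkdcc, −1.36 for Treh, −0.84 for Golph3l, −1.12 for Akap7, 1.59 for Nat8, −0.57 for Krcc1, −0.84 for Arhgef7 and −1.24 for Cdkl2.

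One liver stood apart from the other 4 of its group in 2 of 32 sets of 5, where chance alone gives about 1 in 20. Nat8 had 16.3 CPM in Vec+BBR replicate 1, above the others of its group, and Krcc1 had 22.9 CPM in Vec replicate 2, below the others.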

How the results depend on the processing

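Of 416 alternative values of the 2 average effects on the 8 genes, 403 kept their direction and their side of the threshold, 8 came past it (the vector effect on Treh in 5, the BBR effect on Akap7 without Vec+BBR replicate 1 or shRNA+BBR replicate 2 and on Krcc1 without shRNA replicate 4), none lost it and 5 changed sign. The 5 were all of the average vector effect on Pkdcc, which lay between −0.0440 and 0.0255 with 1 mouse left out (0.0255 without Vec replicate 2, 0.0238 without Vec+BBR replicate 1, 0.0108 without shRNA replicate 1, 0.000989 without shRNA replicate 2 and 0.00263 without shRNA+BBR replicate 1). The BBR effect on Nat8 in shRNA livers, close to 0, was −0.0204 by limma voom and −0.0266 with a replicate block and ran from −0.0856 to 0.122 with 1 mouse left out (−0.000182 without Vec replicate 2, −0.0205 and −0.0392 without shRNA replicates 2 and 5, −0.0762 without shRNA+BBR replicate 2). The number of the 8 genes past the threshold for the difference of the BBR effects was between 4 and 8 with 1 mouse left out. It was 4 without Vec+BBR replicate 4 and 5 without Vec replicate 1, Vec+BBR replicate 2, 3 or 5, shRNA replicate 3 or 4, or shRNA+BBR replicate 2. Pkdcc, Treh, Golph3l and Akap7, the members with the smallest p-values for this difference, passed under all 26 alternatives. The alternatives use the mice by which the genes were chosen, so this is no independent support. Over all genes, 18 passed by edgeR, 330 by the DESeq2 Wald test, 11 by limma voom and 5 to 122 with 1 mouse left out. The cause was not tested. Same-numbered mice deviated together (correlation over 0.1) in at most 3 of 5 pairs, those of shRNA with shRNA+BBR livers. Differently numbered mice were not compared, so this cannot settle whether replicate numbers pair the mice. With the replicate block, 7 of the 8 passed for the difference, 3 for the average BBR effect and 3 for the average vector effect, and Cdkl2 did not pass for the difference (−1.25, adjusted p = 0.0583, edgeR).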
